A study of Mus musculus with 16 samples.

Results

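Small nucleolar RNA (snoRNA) genes were taken from an RNA-seq table of 16 mouse pluripotent stem cell lines as the rows whose gene name started with Snord, Snora or Scarna followed by a digit. This rule found 114 of the 22552 gene names, with 69 Snord, 36 Snora and 9 Scarna rows. Every line came from the same secondary reprogramming system on a 129-M2rtTA background, in which adipocyte progenitor cells (APCs) were isolated from mice made wholly of iPSCs that carry doxycycline-inducible reprogramming factors. AN lines are nuclear transfer embryonic stem cells (ntESCs) derived from blastocysts made by injecting APC nuclei into enucleated B6D2F1 oocytes. AI lines are induced pluripotent stem cells (iPSCs) obtained from APCs with doxycycline. The GS lines among them are iPSC lines derived earlier. F (fully) and P (partially) mark the outcome of tetraploid complementation, in which the tested cells must form the whole mouse. The labels give the line names and the kind of line, and the F or P of each line name was taken from the study's text. For GS9 and GS32 a second label field names GS4, and these lines were placed by their titles. Group AN F held AN1, AN9, AN15 and AN20. Group AN P held AN2, AN3, AN5, AN6 and AN7. Group AI F held AI3, AI7, AI10 and GS32, while AI9, GS4 and GS9 formed AI P. All were grown in ES medium with serum and LIF. Each line is 1 clone with 1 library, so the spread given here is the spread between clones. Passage ran from 5 to 7 in the AN lines and was 7 in AI3, AI7, AI10 and AI9, 13 in GS32, 17 in GS4 and 6 in GS9. GS32 and GS4 thus had the highest passages, while GS9 was at a passage like that of the newer lines. Pou5f1, which encodes the pluripotency factor Oct4, was at 614.6 to 1222 FPKM in every line.

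snoRNAs are short noncoding RNAs that guide chemical modification of other RNAs in the nucleolus. Box C/D snoRNAs (Snord genes) carry a C box and a D box, are bound by fibrillarin, Nop56, Nop58 and Snu13, and guide methylation of ribose in ribosomal RNA. Box H/ACA snoRNAs (Snora genes) carry an ACA motif near the 3′ end, are bound by dyskerin, Nhp2, Nop10 and Gar1, and guide the conversion of uridine to pseudouridine. Small Cajal body RNAs (Scarna genes) guide the same changes in spliceosomal RNAs. Most mammalian snoRNAs lie inside introns of host genes for ribosomal proteins, translation factors and nucleolar proteins, or of noncoding hosts such as Gas5 and the Snhg genes. Mature snoRNAs carry no poly(A) tail, and the labels do not state a poly(A) or size selection for these libraries.

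The sequences of 9 snoRNA genes on which the results turn are given first, read 5′ to 3′ from the NCBIM37 (mm9) genome at the gene models of GENCODE M1. Capitals mark the letters TGATGA (C box) within the first 20 bases and CTGA (D box) within the last 20 bases of Snord genes, and ACA within the last 10 bases of Snora genes. Snord37, one of the shortest gene models, and Snord12 had the highest mean FPKM. Snora78, Snord88a, Snord15b, Snord96a, Snord69 and Snora21 were among the snoRNA genes with the lowest p-values between F and P lines, and Snord19 shares a host gene with Snord69.
Snord37: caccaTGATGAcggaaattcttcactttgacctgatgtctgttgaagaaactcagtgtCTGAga
Snord12: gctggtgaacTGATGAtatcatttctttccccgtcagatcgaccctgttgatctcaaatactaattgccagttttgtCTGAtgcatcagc
Snord88a: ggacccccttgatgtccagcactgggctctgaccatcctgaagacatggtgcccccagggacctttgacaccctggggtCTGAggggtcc
Snord15b: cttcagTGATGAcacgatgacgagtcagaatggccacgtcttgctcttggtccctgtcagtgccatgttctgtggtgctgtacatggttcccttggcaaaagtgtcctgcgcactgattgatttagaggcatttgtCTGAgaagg
Snord96a: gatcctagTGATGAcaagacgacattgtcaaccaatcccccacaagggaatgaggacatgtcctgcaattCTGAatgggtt
Snord69: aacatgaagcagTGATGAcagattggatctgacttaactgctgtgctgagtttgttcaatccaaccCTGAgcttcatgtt
Snord19: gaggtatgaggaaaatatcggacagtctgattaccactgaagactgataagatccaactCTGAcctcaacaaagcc
Snora78: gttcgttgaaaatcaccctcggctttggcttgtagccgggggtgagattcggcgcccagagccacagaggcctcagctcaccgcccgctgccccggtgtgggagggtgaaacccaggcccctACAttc
Snora21: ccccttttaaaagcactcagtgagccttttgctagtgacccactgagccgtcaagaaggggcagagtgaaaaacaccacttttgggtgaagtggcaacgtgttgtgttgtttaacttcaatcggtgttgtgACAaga

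Snord37 lies at chr10:80641695-80641758, forward strand, in an intron of Eef2, the translation elongation factor gene. Snord12 lies at chr2:166890776-166890865, forward strand, and overlaps an exon of 1500012F01Rik. Snord88a (chr7:51505505-51505594, forward strand) is in an intron of 2410002F23Rik. Snord15b (chr7:106628073-106628217, reverse strand) overlaps an exon of an annotated transcript of Rps3, a ribosomal protein gene. Snord96a (chr11:48615534-48615614, forward strand) overlaps an exon of a transcript of Gnb2l1, which encodes a ribosome-associated scaffold protein. Snord69 (chr14:31827473-31827552, reverse strand) and Snord19 (chr14:31829392-31829467, reverse strand) lie in introns of Gnl3, which encodes the nucleolar GTPase nucleostemin. Snora78 (chr17:24856621-24856748, reverse strand) is in an intron of the noncoding gene Snhg9. Snora21 (chr11:97642953-97643089, reverse strand) is in an intron of Rpl23, another ribosomal protein gene.

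Of the 114 gene names, 97 were found in the annotation. Introns of a host on the same strand held 60 of them, 31 overlapped an exon of at least 1 host transcript, and 6 had no host on their strand. There were 67 hosts, and 17 of these held 2 or more snoRNA genes, up to 4 in Rpl13a and 4 in Snhg12. Gm20388 and Rpl13, which both overlap Snord68, were counted as 1 host. The host of Snord123 is a noncoding gene annotated under the same name. Gene models had a median length of 78.5 bases for Snord (64 to 238), 132.5 for Snora (127 to 196) and 140 for Scarna (70 to 414). Both C and D box letters were found at the ends of 33 of 56 Snord sequences (58.9%) and of 0 of 31 Snora sequences. ACA was found near the end of 29 of 31 Snora sequences (93.5%) and of 7 of 56 Snord sequences (12.5%). Among the 1514 genes annotated as snoRNA outside chromosome 18, the shares were 18% for the C and D boxes and 48.3% for ACA. Search was on the gene's own strand, and the letters describe the sequence and are no proof of a working motif.

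FPKM divides reads by transcript length and library depth, so 1 read in a very short gene gives a large value. In 97 of the 114 rows, all values were whole multiples of 1 step after the depth of each line was taken out, with an offset of at most 0.001 steps. That step is what 1 read was worth, and dividing by it gave whole reads, which are exact unless all lines share a common divisor. In 13 other rows every line was at 0, and 4 rows (Snora24, Snora26, Snord45c and Snord7) gave no whole reads. At the depth of AN1, 1 read was worth 0.536 to 7382 FPKM, with a median of 66.9. The median was 230.4 FPKM for Snord (57 rows), 11.5 for Snora (33 rows) and 11.5 for Scarna (7 rows). Gene model length and step ran against each other across 88 genes (Spearman rho = -0.755), a description over genes that share the same 16 libraries. These lengths are those of GENCODE M1, and the lengths behind the authors' FPKM are not given. Snord37 at 64 bases and Snord70 at 87 bases had the same step of 7382 FPKM. Depth relative to AN1 ranged from 0.961 in AI7 to 1.26 in GS4.

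**Figure D1:**
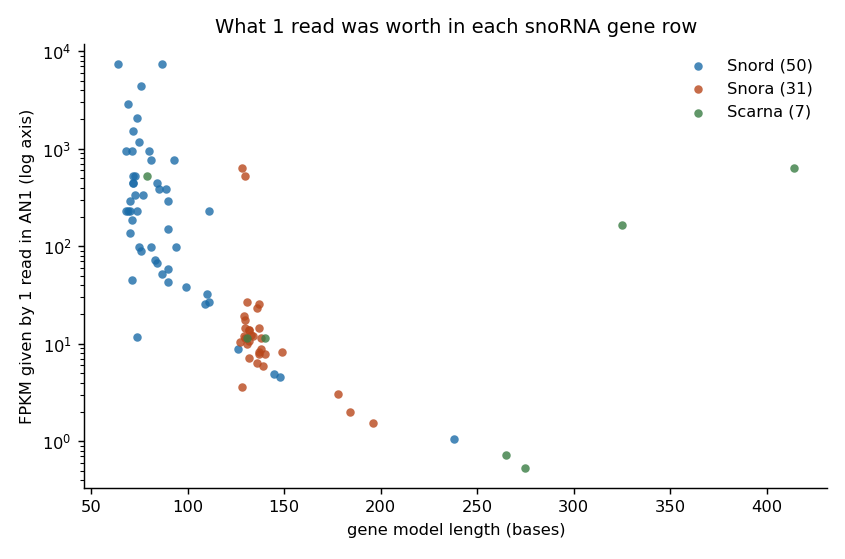
The FPKM that 1 read gave in AN1 (log axis) is plotted against gene model length in bases for 88 snoRNA genes, 1 point per gene, coloured by family. Snord genes lie at the upper left, with up to 7382 FPKM per read, while most Snora genes near 130 bases lie around 11.5 FPKM per read.

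Few reads stood behind most values. Over the 1552 values of the 97 rows, 24.6% were 0 reads, 25.1% were 1 to 3 reads and 31.2% were 10 reads or more, with a median of 4 and a highest value of 199 reads in a line. In 39 rows no line held more than 5 reads, in 14 rows no line held more than 1, and in 17 rows every line held at least 10. Snord37 shows the effect of the step. Its mean of 9605 FPKM was the second highest of all snoRNA genes and came from 1, 2, 0 and 0 reads in AN F, 2, 1, 2, 2 and 3 in AN P, 1, 0, 2 and 1 in AI F and 1, 1 and 3 in AI P. In FPKM, the AN F lines held 7382, 13759, 0 and 0. By contrast Snord12, the highest by FPKM (10910 on average), rested on 33, 24, 31 and 34 reads in AN F, 44, 35, 35, 38 and 41 in AN P, 29, 45, 34 and 34 in AI F and 39, 70 and 69 in AI P. GS4 and GS9 were the highest lines for Snord12. The snoRNA genes with the most reads were Snord22, which is encoded in the noncoding host Snhg1, with a mean of 94.6 reads a line at the depth of AN1, and Snora81, which overlaps an exon of the translation initiation factor gene Eif4a2, with 85.9. Of the 20 highest genes by FPKM, 5 were also among the 20 highest by reads. Genes that overlap a host exon held 56.1% of the snoRNA reads and had a median of 11.9 reads a line, while intronic ones held 37.9% with a median of 1.99. Reads from the host mRNA and from the snoRNA cannot be told apart where exons overlap, and a use of strand in the counting is not stated.

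snoRNA genes were listed at 0 in 31.9% of their 1824 values. The share was 22.2% over all other gene rows. Among rows that averaged 0.5 FPKM or more, it was 23.6% for snoRNA genes and 0.835% for the others. By family, 27 of 69 Snord, 26 of 36 Snora and 0 of 9 Scarna genes were above 0 in all 16 lines. A mean of at least 0.5 FPKM, the limit for testing, was reached by 59 Snord, 33 Snora and 7 Scarna genes, 99 in all. Snora24 (mean 0.0169 FPKM) and Snora26 (0.423) were above 0 but under the limit, and Snord1a, Snora36b (0.701) and Scarna6 (0.773) lay just over it. The number of snoRNA genes at 0 in a line ranged from 27 in AN20 to 41 in GS32. AN F had 32.8 ± 4.03 such genes (SD, n = 4), against 38.2 ± 1.79 for AN P (SD, n = 5). AI F had 38 ± 2.45 (SD, n = 4), against 35.7 ± 1.15 for AI P (SD, n = 3). F and P lines overlapped within AI, and AN1 overlapped with AN P. A further 52 values lay above 0 but at or under 0.01 FPKM, far less than 1 read. The 13 genes at 0 in every line were Scarna3b, Scarna9, Snora35, Snord42a, Snord43, Snord45b, Snord64, Snord68, Snord92, Snord93, Snord116, Snord116l1 and Snord116l2. Snord64 and Snord116 belong to the paternally expressed Snurf-Snrpn imprinted cluster. Snurf, a gene of this cluster, had 161, 179.7, 155 and 136 FPKM in AN F, 161, 193, 192, 239 and 261 in AN P, 159, 166, 169 and 129.9 in AI F and 146, 153 and 275 in AI P, and no line was at 0. A 0 for these short genes may be a failed estimate, and absence of the RNA cannot be read from it. Among the remaining named genes, Scarna2, a Cajal body RNA, had 1 read in AN2 and 1 in GS32, and Snora74a (U19) had 1 to 18 reads in every line.

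The 114 rows, 0.505% of all gene names, held 12.4% to 25.1% of the summed FPKM of a line. The shares were 16.2%, 24.8%, 13.1% and 25.1% in AN1, AN9, AN15 and AN20, 16.7%, 13%, 16.9%, 15.1% and 18.9% in AN2, AN3, AN5, AN6 and AN7, 12.4%, 13.7%, 13.9% and 12.9% in AI3, AI7, AI10 and GS32, and 15.7%, 19.5% and 17.3% in AI9, GS4 and GS9. AN9 and AN20 were the highest lines in this share, and the 4 AI F lines lay below the 3 AI P lines. AN F averaged 19.8 ± 6.08% (SD, n = 4), against 16.1 ± 2.22% for AN P (SD, n = 5). AI F averaged 13.2 ± 0.7% (SD, n = 4), against 17.5 ± 1.89% for AI P (SD, n = 3). Without AN9 and AN20, the AN F mean was 14.6%. Snord genes alone held 15.3% on average and Snora genes 1.29%, although both families had nearly the same number of reads, 485 and 475 per line at the depth of AN1. The 10 highest genes of a line made up 58.1% to 69.6% of its snoRNA FPKM. Snord37 was the highest gene in 6 lines and Snord12 in 6, and Snord47, Snord69 and Snord19 led the others. In reads at the depth of AN1, AN F held 1079 ± 219 (SD, n = 4), against 971 ± 115 for AN P (SD, n = 5). AI F held 783 ± 139 (SD, n = 4), against 1036 ± 256 for AI P (SD, n = 3). Unlike the FPKM share, reads overlapped between these groups, with AI9 (745) below AI7 (958) and GS32 (832). AN20 (1296) and AN9 (1238) were the highest and AI10 (660) the lowest line. MicroRNA gene rows, other short genes, held 2.78% to 5.13% and were lowest in AN20 and AN9 together with AI3.

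**Figure D2:**
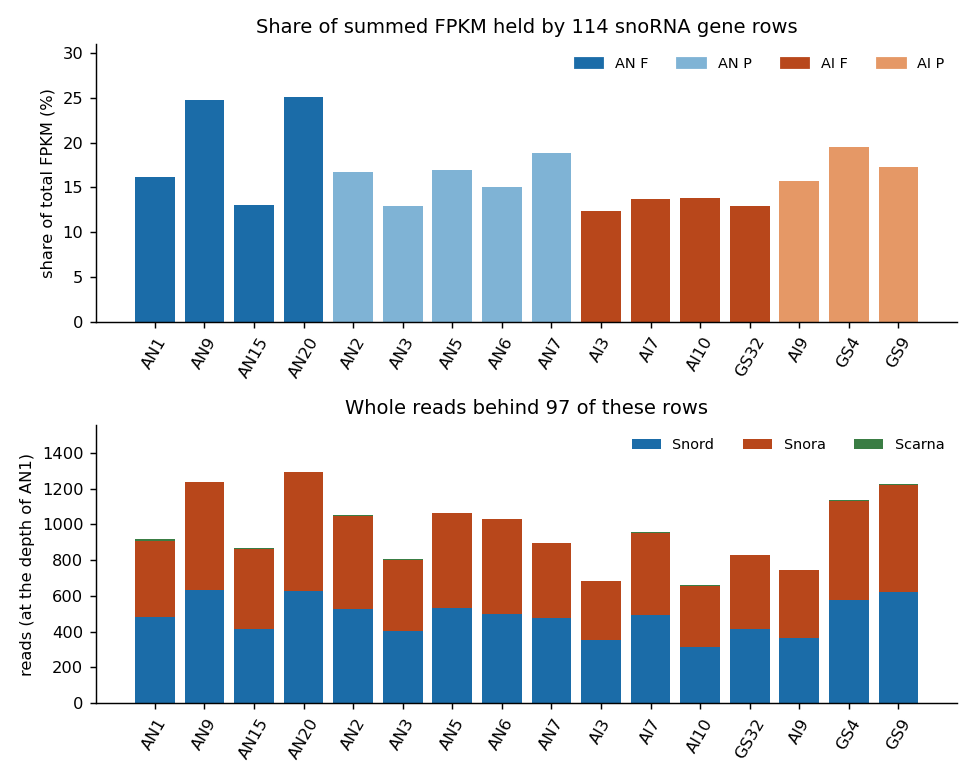
For each of the 16 lines, the upper bars give the share of summed FPKM held by the 114 snoRNA gene rows in percent, coloured by group, and the lower bars give whole reads at the depth of AN1, stacked by family. AN9 and AN20 stand at 24.8% and 25.1% while the other lines lie between 12.4% and 19.5%, and Snord and Snora reads are of similar number in every line.

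Repeatability was described by the SD of log2(FPKM + 1) between lines of the same group. For the 99 snoRNA genes that averaged 0.5 FPKM or more, the median SD was 0.865 (quartiles 0.504 and 2.87, range 0.226 to 6.74). For 12907 other genes, small RNA genes left out, it was 0.201. Other genes within 0.5 log2 units of the same mean level could be found for 95 snoRNA genes, and all 95 had an SD above the median of those genes. Restricting to the 51 genes above 0 in all 16 lines gave a median of 0.528. The most even genes were Snord100 (SD 0.226), in an intron of Rps12, Snora3 (0.336), Snord32a (0.344), Snord12 (0.346) and Snord15b (0.351). Snord100 had 32, 36, 38 and 43 reads in AN F, 27, 33, 27, 38 and 26 in AN P, 27, 27, 28 and 37 in AI F and 28, 48 and 25 in AI P. The most uneven were Snord19 (6.74), Snord70 (6.46), Snord99 (6.26), Snord66 (5.82) and Snord38a (5.31). Snord70, in an intron of Nop58, shows what such an SD stands for, with 0, 1, 0 and 2 reads in AN F, 1, 0, 0, 0 and 2 in AN P, 0, 0, 0 and 0 in AI F and 1, 2 and 0 in AI P. Across genes, log2 values of 2 lines of a group correlated with a median Pearson r of 0.699 for the 99 snoRNA genes (25 pairs of lines), 0.938 for the 51 above 0 in all lines, 0.42 for the 48 at 0 in at least 1 line and 0.985 for the 12907 other genes. For lines of different groups the medians were 0.684, 0.927, 0.442 and 0.983 over 95 pairs. These are descriptions over genes of the same libraries.

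**Figure D3:**
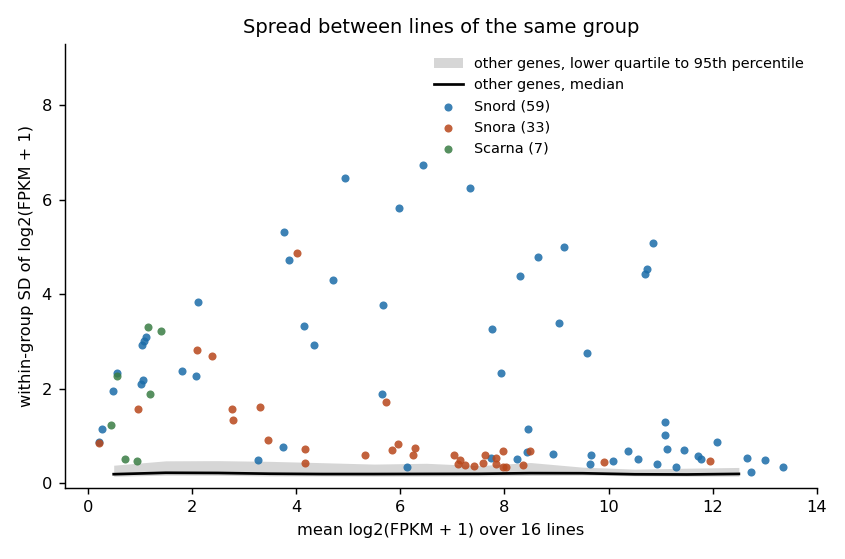
Within-group SD of log2(FPKM + 1) is plotted against the mean over 16 lines, with 1 point for each of 99 snoRNA genes. The black line gives the median of other genes per unit of mean, near 0.2 throughout, and grey their range from the lower quartile to the 95th percentile. Snord genes reach an SD of 6.74.

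Counting noise alone gives a variance of reads close to the mean. The ratio of the within-group variance of reads to the mean had a median of 0.876 for 28 genes with under 1 read a line, 1.16 for 16 genes with 1 to 3, 1.21 for 23 genes with 3 to 10, 2.09 for 24 genes with 10 to 30 and 4.48 for 6 genes with 30 or more. The ratio was highest for Snord69 (9.03), Snora31 (8.81), Snora81 (7.96) and Snord22 (6.19). Leaving out AN9 and AN20, it was 0.57 for Snord69, 9.8 for Snora31, 1.42 for Snora81 and 5.34 for Snord22.

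AN9 and AN20, both AN F, stood apart from the other lines in many snoRNA genes. They were the highest 2 lines for 15 of the 99 tested snoRNA genes (15.2%) and for 1045 of all 13185 tested genes (7.93%). Over all tested genes AN6 and GS9 were the highest 2 lines for more, 1106 (8.39%), and GS4 and GS9 for 854 (6.48%). No pair other than AN9 and AN20 was highest for more than 5 snoRNA genes. The 15, picked by this pattern, were Snora23, Snora28, Snora41, Snora68, Snora69, Snora75, Snora81, Snord2, Snord16a, Snord19, Snord47, Snord52, Snord69, Snord91a and Snord96a. Snord69 had 28 and 27 reads in AN9 and AN20 and 1 to 6 in the other lines. In FPKM it was 2818, 24508, 923 and 21295 in AN1, AN9, AN15 and AN20. Snord19, its neighbour in Gnl3, had 5 and 6 reads in these lines and 0 to 3 elsewhere. Their host was at 219, 295, 172 and 265 FPKM in the AN F lines, against 150.1 to 288 in the lines other than AN9 and AN20, so AN9 was above and AN20 inside that range. Snord96a had 51 and 63 reads and 6 to 22 elsewhere, while its host Gnb2l1 had 1261 and 1095 FPKM against 974 to 1371. Snord95, also in Gnb2l1, had 7 and 10 reads, at the depth of AN1 1.32 and 1.7 times the median of the other lines, where Snord96a had 3.48 and 3.87 times. Snora81 had 174 and 199 reads and 53 to 112 elsewhere. Snord2, which shares the host Eif4a2, had 32 and 29 reads, 3.29 and 2.69 times the median of the other lines, and Eif4a2 itself 1.31 and 1.35 times. The 4 snoRNA genes of Rpl13a lay on both sides of their medians. Snord32a had 0.912 and 0.822 times and Snord33 0.789 and 0.664 times the median of the other lines, Snord34 had 0.928 and 1.09 times, and Snord35a 1.44 and 1.54 times. Rpl13a itself had 0.787 and 0.639 times. Of the 12 host genes of the 15 in the table, 1 (Ipo7) had AN9 and AN20 as its highest 2 lines, against 7.93% of all tested genes. Both lines were above the median of the other lines in 10 hosts. The share of all genes with both above it was not counted, so nothing particular to the hosts can be read from this. All 8 pluripotency markers were above 1 FPKM in every line, and their sum was 3442 FPKM in AN9 and 3385 in AN20 (range 2826 to 3442 in AN F, 2572 to 3591 in AN P, 2371 to 3200 in AI F and 2821 to 4743 in AI P). The 8 markers of fibroblasts or feeder cells, 7 of them above 1 FPKM in every line, summed to 216.5 in AN9 and 271 in AN20 (216.5 to 507 in AN F, 272 to 599 in AN P, 269 to 683 in AI F and 105.6 to 528 in AI P). The 4 markers of adipocyte progenitor cells summed to 12.1 and 13.1 (11.3 to 28.2 over all lines), and the 4 of extraembryonic endoderm to 1.41 and 1.87 (1.19 to 4.27). AN9 and AN20 lay inside the range of the other lines on each of these 4 lists. Passage was 6 in both lines, and also in AN15, AN7 and GS9. The part of passage and of feeder cells in this pattern was not tested. Genes of this paragraph other than Snord69, Snord19, Snora69, Snord32a, Snord35a, Snord91a and Snord96a were picked after their values were seen.

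**Figure D4:**
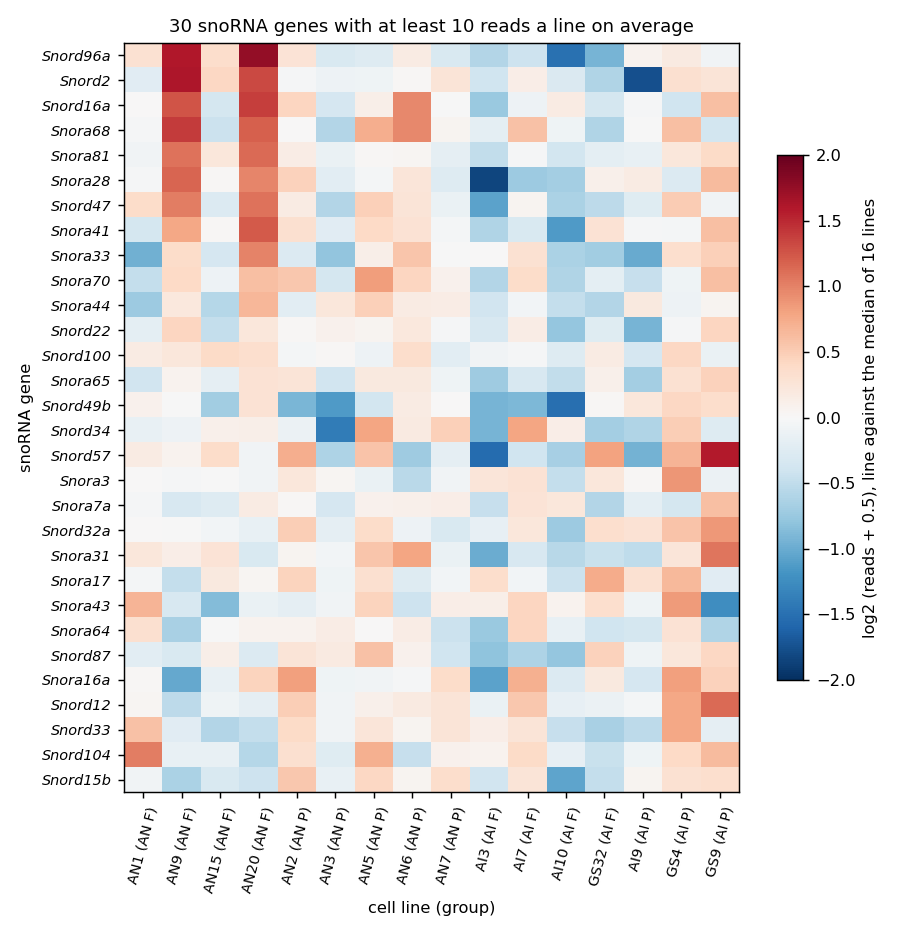
The 30 snoRNA genes with at least 10 reads a line on average are shown by line as the log2 ratio of reads, at equal depth and with 0.5 added, to the median of the 16 lines. Red marks higher and blue lower values. The rows are ordered by the mean of AN9 and AN20, and 7 of the 30 genes are at least 2-fold above the median in AN9 and 7 in AN20, against at most 3 in any other line.

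AN F was compared with AN P to ask whether snoRNA levels differ between fully and partially reprogrammed ntESCs. No snoRNA gene passed a limma adjusted p of 0.05, nor did any of the 13185 genes (0% called). At an unadjusted p under 0.05, 10 of the 99 tested snoRNA genes were higher in AN F (10.1%, against 3.02% of all genes) and 6 were lower (6.06%, against 2.99%). In either direction these were 16.2% of the snoRNA genes and 6.01% of all genes. The 10 included Snord45c, which gave no whole reads and was under 0.01 FPKM in AN2, AN5 and AN6. Without AN9 and AN20, 2 were higher and 5 lower, with 0.758% of all genes at that p in either direction. Snord88a then had a limma adjusted p of 0.000123, and 3 of all genes were under 0.05. The median log2 fold change was 0.14 over the snoRNA genes and -0.01 over all genes, and -0.08 over the snoRNA genes without AN9 and AN20. In 1 snoRNA gene, Snord96a, every AN F line lay above every AN P line (0.584% of all genes), and in 2, Snora78 and Snord88a, every AN F line lay below (0.713% of all genes).

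Snora78, a box H/ACA snoRNA that overlaps Rps2 on the other strand, had 3, 3, 4 and 3 reads in the AN F lines and 7, 5, 7, 9 and 8 in the AN P lines. In FPKM these were 10.9, 10.1, 14.2 and 9.12, and 26.1, 15.9, 24.9, 31.2 and 27.4. The groups did not overlap, by a margin of 1 read. The means were 11.1 ± 2.21 FPKM (SD, n = 4) and 25.1 ± 5.67 FPKM (SD, n = 5), with a log2 fold change of -1.10 (SE 0.19), an unadjusted p of 0.000209 and a limma adjusted p of 0.636. The exact two-sided permutation p was 0.0159, the smallest that 4 against 5 lines allow. Its host Snhg9 had 18.3, 11.4, 7.99 and 3.41 FPKM in AN F and 25.1, 12.5, 24, 13.6 and 25 in AN P, with overlap, and a log2 fold change of -1.03 (SE 0.40, adjusted p = 0.636). In the AI lines, Snora78 had 4, 6, 4 and 3 reads in AI F and 7, 5 and 9 in AI P, with overlap.

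Snord88a had 0, 0, 0 and 1 reads in AN F and 1, 1, 1, 2 and 1 in AN P. A single read gave 127 FPKM in AN20, and the AN P lines ranged from 132.5 to 289 FPKM, so AN20 and 4 of the AN P lines held the same single read and differed by depth alone. The log2 fold change was -5.64 (SE 1.34), with a limma adjusted p of 0.636, and the exact permutation p was 0.0159. Without AN20 the adjusted p was 7.6e-06, with every remaining AN F line at 0 and every AN P line at 1 or 2 reads. Snora19 went the other way, with 0, 1, 2 and 1 reads in AN F and 0 in each of the other 12 lines. Its log2 fold change of 8.41 (SE 2.13) stands for 4 reads in all, and its exact permutation p was 0.0952. Without AN1 it had a limma adjusted p of 3.07e-07, with every remaining AN F line at 1 or 2 reads and every AN P line at 0. Scarna6 had 3, 1, 2 and 3 reads in AN F and 1, 0, 0, 1 and 0 in AN P, an exact permutation p of 0.0476 and a limma adjusted p of 0.636.

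Snord15b and Snord96a rested on more reads. Snord15b had 14, 10, 12 and 13 reads in AN F and 21, 15, 20, 16 and 20 in AN P, and AN1 lay inside the range of AN P in FPKM, with means of 56.8 ± 9.64 FPKM (SD, n = 4) and 87.6 ± 16.9 FPKM (SD, n = 5). Its log2 fold change was -0.61 (SE 0.16), with a limma adjusted p of 0.636, and its exact permutation p was 0.0317. Snord15a, the other snoRNA gene of Rps3, had 4, 6, 3 and 2 and 8, 4, 3, 4 and 5 reads, with a log2 fold change of -0.39 (SE 0.35, adjusted p = 0.686). Its exact permutation p was 0.381. Snord96a had 19, 51, 20 and 63 reads in AN F and 18, 14, 13, 18 and 13 in AN P. AN9 and AN20 were far above the rest, and AN1 and AN15 just above the highest AN P line. The log2 fold change was 1.11 (SE 0.33), with a limma adjusted p of 0.636, and the exact permutation p was 0.0159. Snord12, with overlap between the groups, had a log2 fold change of -0.38 (SE 0.15), an adjusted p of 0.636 and an exact permutation p of 0.0317. The lowest log2 fold change was that of Snord37, -7.06 (SE 2.91), on 0 to 3 reads a line, with an exact permutation p of 0.0952. Its mean reads at equal depth were 0.371 times those of AN P, and those of Snord88a 0.182 times, so the log2(FPKM + 1) scale gave larger differences than the reads. Mean reads and log2 fold change had opposite signs for Snord42b, Snord58b and Snord66 in this comparison.

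**Figure D5:**
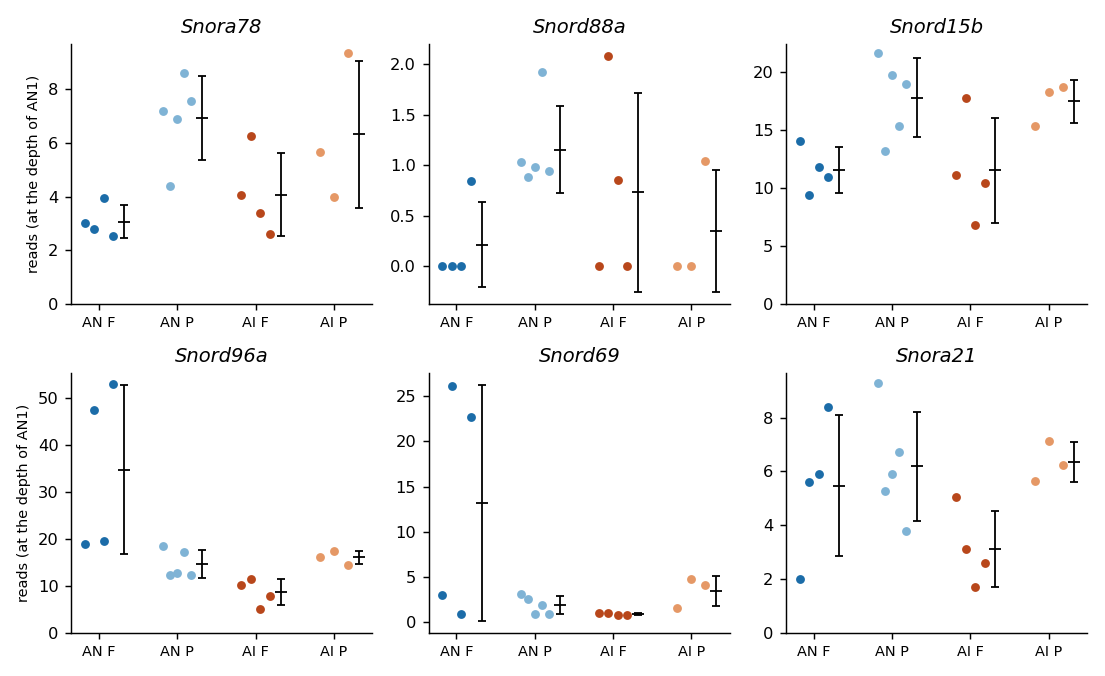
Reads at the depth of AN1 are plotted by group for 6 snoRNA genes, 1 point per line, with the mean and SD beside the points. Snora78 and Snord88a lie lower in every AN F line than in the AN P lines, Snord96a lies higher in AN F with AN9 at 47.5 and AN20 at 52.9, and Snord69 reaches over 20 reads in AN9 and AN20 only.

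AI F was compared with AI P to ask the same of iPSCs. No snoRNA gene and no other gene passed a limma adjusted p of 0.05 (0% called). At an unadjusted p under 0.05, 1 of 99 snoRNA genes was higher in AI F (1.01%, against 3.47% of all genes) and 8 were lower (8.08%, against 4.3%). In either direction these were 9.09% of the snoRNA genes and 7.77% of all genes. Scaling each line by the total of genes other than small RNA genes gave 3 higher and 7 lower, with 6.42% of all genes in either direction. Quantile normalization gave 3 and 6, with 7.67% of all genes. The median log2 fold change was -0.27 over the snoRNA genes and -0.04 over all genes, and under the first of these scalings -0.10 and 0.10. In 6 snoRNA genes every AI F line lay below every AI P line (6.06%, against 3.19% of all genes) and in 0 above (1.7% of all genes). The 6 were Snora21, Snord45c, Snord49b, Snord58b, Snord69 and Snord96a. Snord45c was among the rows that gave no whole reads. With 4 against 3 lines the smallest exact permutation p is 0.0571.

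Snord69 had 1, 1, 1 and 1 reads in AI F and 2, 6 and 4 in AI P, the smallest p of the snoRNA genes in this comparison. In FPKM these were 948, 977, 797 and 815, and 1516, 4471 and 3904. The log2 fold change was -1.76 (SE 0.37), with an unadjusted p of 0.0019 and a limma adjusted p of 0.521, and the exact permutation p was 0.0571. Its neighbour Snord19 had 1, 1, 1 and 0 and 3, 2 and 0 reads, with overlap. Snora21, a box H/ACA snoRNA, had 5, 3, 2 and 3 reads in AI F and 7, 9 and 6 in AI P, and its log2 fold change was -1.09 (SE 0.32, adjusted p = 0.521). Snord96a had 10, 11, 6 and 9 and 20, 22 and 14 reads, all AI F lines below all AI P lines, and a log2 fold change of -0.96 (SE 0.28, adjusted p = 0.521). Snord49b, in an intron of 2410006H16Rik, had a log2 fold change of -1.20 (SE 0.39) with the same adjusted p, from 9, 9, 7 and 21 and 26, 30 and 22 reads. Snora15 (0, 0, 1 and 0 against 1, 2 and 1 reads) and Snord23 (1, 1, 1 and 0 against 0, 0 and 0 reads) were also among the 5 smallest p-values. Each turned on single reads, and without AI10 and without GS32 their adjusted p-values were 0.0172 and 0.000275. The extremes of the log2 fold change, 4.76 (SE 3.48) for Snord66 and -8.69 (SE 3.01) for Snord70, rested on 0 to 2 reads a line. Snord70 had 0 reads in every AI F line, and without GS9, 1 and 2 reads in the remaining AI P lines gave an adjusted p of 1.61e-05.

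The 9 AN lines were compared with the 7 AI lines, giving the F and P groups of each kind equal weight, to ask whether the route of reprogramming goes with snoRNA levels. These comparisons share their lines. No snoRNA gene and no other gene passed a limma adjusted p of 0.05 (0% called). At an unadjusted p under 0.05, 9 of 99 snoRNA genes were higher in AN (9.09%, against 2.16% of all genes) and 1, Snord45c, was lower (1.01%, against 1.36%). In either direction these were 10.1% of the snoRNA genes and 3.52% of all genes. Snord45c gave no whole reads, and its values in AN2, AN5 and AN6 were under 0.01 FPKM, far less than 1 read. Without AN9 and AN20, 6 snoRNA genes were higher and 2 lower, with 3.25% of all genes at that p in either direction. The median log2 fold change was 0.17 over the snoRNA genes, 0.004 over all genes, and 0.09 over the snoRNA genes without AN9 and AN20. No snoRNA gene separated all AN lines from all AI lines (0.0152% of all genes were higher and 0.00758% lower without overlap). Snord96a had 13 to 63 reads in the AN lines, median 18, and 6 to 22 in the AI lines, median 11, with a log2 fold change of 0.88 (SE 0.23), an unadjusted p of 0.0019 and a limma adjusted p of 0.999, and a permutation p of 0.0215 (exact, two-sided). Its mean reads at equal depth were 34.8 in AN F and 8.61 in AI F, but 14.6 in AN P and 16 in AI P. The difference thus lay in the F lines, with AN9 at 47.5 and AN20 at 52.9. Snora69, in an intron of Rpl39, had 1, 10, 2 and 5 reads in AN F, 3, 1, 1, 1 and 1 in AN P, 2, 1, 0 and 0 in AI F and 0, 1 and 1 in AI P, and a log2 fold change of 2.23 (SE 0.73, adjusted p = 0.999). Snord15a and Snord35a, from hosts Rps3 and Rpl13a, had log2 fold changes of 1.05 (SE 0.35) and 0.78 (SE 0.31), both with an adjusted p of 0.999 and with exact permutation p-values of 0.0168 and 0.0247. Snord91a had the highest log2 fold change, 4.90 (SE 2.14), and Snord19 the lowest, -4.08 (SE 3.06). Their exact permutation p-values were 0.0577 and 0.295. For Snord19 the mean reads at equal depth were 1.18 in AN and 0.987 in AI, so the sign on the log2(FPKM + 1) scale and that of the reads differed.

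The AI difference (AI F minus AI P) was set against the AN difference (AN F minus AN P) in an interaction contrast over all 16 lines. At an unadjusted p under 0.05, 2 of 99 snoRNA genes were higher and 10 lower in AI than in AN, against 8.3% of all genes higher and 8.34% lower, and 0 passed an adjusted p of 0.05 (0% of all genes). Snord96a had the smallest p of the snoRNA genes, with an adjusted p of 0.29 from limma, and 0.0433 without AI9, where 651 of all genes were also under 0.05. It lay above AN P in AN F and below AI P in AI F, without overlap in either. Without AN1, Snora19 had a limma adjusted p of 1.28e-11 here and in AN against AI. It had 0 reads in every AN P, AI F and AI P line, so those groups had no spread. This p rests on 1 or 2 reads in each remaining AN F line. With all lines, the exact permutation p in AN against AI was 0.3.

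Of 30 genes for proteins that build, process or bind snoRNAs, 29 were tested. None passed a limma adjusted p of 0.05 in any comparison. In AN F against AN P, 3 were higher (Tgs1, log2 fold change 0.30, which trimethylates the cap of some snoRNAs, Xpo1, 0.44, an export receptor, and Znhit3, 0.34, an assembly factor) and 2 lower (Gar1 and Nop10, box H/ACA core proteins) at an unadjusted p under 0.05, and the median log2 fold change was 0.04. Of all tested genes, 3.02% were higher and 2.99% lower at that p. Nop10 had 239, 244, 206 and 183 FPKM in AN F and 322, 228, 272, 276 and 284 in AN P, and a log2 fold change of -0.34 (SE 0.12, adjusted p = 0.636). Gar1 had 98.2, 98.6, 91.3 and 84.4 and 121, 103, 105, 129.9 and 115 FPKM, and a log2 fold change of -0.30 (SE 0.09, adjusted p = 0.636). In AI F against AI P and in AN against AI, 0 of the 29 were below an unadjusted p of 0.05, with medians of -0.22 and -0.02. Of all tested genes, 7.77% and 3.52% were below it. A list of 58 genes known as snoRNA hosts, which is not the set of 67 hosts found here, had 51 tested genes. In the annotation 25 of these were the only host of at least 1 of the 114 snoRNA genes. The other 26 were not, among them Rpl30, Snhg8, Snhg11, Snurf, Meg3 and Rian. They include Rpl13, which overlaps Snord68 together with Gm20388. None of the 51 passed an adjusted p of 0.05. At an unadjusted p under 0.05, 0 were higher and 6 lower in AN F than in AN P (Rpl13a, Rpl30, Snhg12, Snhg8, Snhg9 and Snurf). The shares of all tested genes were 3.02% and 2.99%. In AI F relative to AI P, 2 were higher (Meg3, log2 fold change 1.17, and Rian, 1.19, noncoding genes of an imprinted region). Lower there were 3 (Eif4a2, Rpl23a and Snhg11), against 3.47% of all genes higher and 4.3% lower. In AN against AI, 3 were higher (Meg3, Rian and Tpt1) and 0 lower, against 2.16% and 1.36% of all genes. The median log2 fold changes of the listed genes were 0.003, -0.24 and -0.01. For all tested genes they were -0.01, -0.04 and 0.004.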

How the data were processed

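RNA was sequenced as single reads of 50 bases from 16 lines with 1 library each. Per the submitters' processing notes the tools were TopHat2 2.1.0, HTSeq and Cufflinks 2.2.1 with build mm9. The deposited FPKM table, made by the authors, held 22552 gene names and 16 columns of lines, all used. FPKM was tested as log2(FPKM + 1) with limma 3.58.1 (R 4.3.3; lmFit and eBayes with trend) over the 13185 genes with a mean of at least 0.5 FPKM, with Benjamini-Hochberg adjustment over all of them and a threshold of 0.05. F and P lines were fitted within AN and within AI, and the 4 groups together for AN against AI and for the interaction. Fold changes on this scale understate those of genes with low FPKM. For short genes, where 1 read is worth many FPKM, a 0 against 1 read gives a large fold change. The sign of the fold change differed from that of mean reads at equal depth for 3 of 32 named genes in AN F against AN P, 2 of 31 in AI F against AI P and 5 of 32 in AN against AI. In AN against AI the fold change weighted the groups equally, while the mean reads weighted the lines equally. The signs there may thus differ by weighting as well as by scale. Single named genes were also compared with exact two-sided permutation tests (scipy 1.17.1) of 32 genes in 3 comparisons, 96 tests without adjustment, of which 6, 0 and 4 were under 0.05. Replicates are separate clones and no more is known of their independence.

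Reads behind the FPKM were recovered as whole multiples of a step within 0.001 steps, leaving out values of 0.01 FPKM or less. Total library depth is not given by the table, only depth relative to AN1. Gene positions and sequences came from GENCODE M1 on NCBIM37, the build of the files. In simulated data with 13185 genes and 200 changed by 1 log2 unit, 175 were recovered for AN F against AN P and 119 for AI F against AI P. These are rates over all tested genes, whose median SD was 0.201 without small RNA genes, and do not apply to the snoRNA genes, whose median SD was 0.865. snoRNA genes, marker and gene lists were chosen with earlier results of these data known. The genes named were those with an adjusted p under 0.05, the 8 highest by mean FPKM, the 5 smallest p-values and both extremes of the fold change per comparison, the 5 smallest and 5 largest SDs, members of imprinted clusters, Snord88a and a few well-known members, with their hosts. Others are said to be picked by their values.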

Additional observations from a re-analysis of the deposited data

Results flagged for a closer look

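A line was marked where its value stood off from the rest of its group by Dixon's criterion. Chance alone meets it in about 1 in 20 groups of continuous, normally spread values. That rate does not hold here, since a single read in a group otherwise at 0 is always marked. Of 101 groups of 4 or 5 lines, 16 had such a line, and this count cannot be set against that rate. In AN F these were AN20 for Snord23 (21.3 FPKM) and for Snord88a (127 FPKM), AN1 for Snord38a (939 FPKM) and AN15 for Snord99 (0 FPKM). In AN P they were AN2 for Scarna2 (650 FPKM) and Snora69 (30.9 FPKM), AN6 for Snord19 (4211 FPKM), Snord88a (289 FPKM) and Snord99 (7897 FPKM), and AN7 for Snord58b (8245 FPKM). In AI F they were GS32 for Scarna2 (547 FPKM), AI10 for Snora15 (10.5 FPKM), Snora3 (182.1 FPKM) and Snord91a (647 FPKM), and AI7 for Snord12 (13780 FPKM) and Snord38a (977 FPKM). Of the 16 values, 9 were a single read: Scarna2 in both lines, Snord19, Snora15, Snord23, Snord88a in AN20, Snord38a in both lines and Snord91a.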

How the results depend on the processing

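The alternatives were the pseudocount, the filter on low values, 3 scalings, the limma settings, a fit of all 16 lines, passage as a covariate and leaving out each line. Chosen after seeing the data were reads at equal depth and leaving out AN9 and AN20. The fold change kept its sign in all 20 named results, which were picked for small p-values or extreme fold changes in these same data. Such results seldom change sign, so this is weak evidence of stability. The median over the snoRNA genes in AN F against AN P did change sign, from 0.139 to -0.080 without AN9 and AN20. Without AN9 and AN20, AN F against AN P had 1 snoRNA gene at an adjusted p under 0.05, against 3 of all genes. At an unadjusted p under 0.05 it had 7, against 100 of all genes (0.758%). Leaving out single lines gave 0 to 1 snoRNA genes at an adjusted p under 0.05 in each of the 3 comparisons and the interaction. Over all genes, up to 1 was called in AN F against AN P and up to 5 in AI F against AI P. Up to 1 was called in AN against AI and up to 651 in the interaction. At an unadjusted p under 0.05 there were 10 to 21 snoRNA genes for AN F against AN P and 8 to 15 for AI F against AI P. For AN against AI there were 6 to 15, and for the interaction 10 to 18. The share of all genes at that unadjusted p moved as well, from 1.51% (without AN20) to 15.8% (without AN1), from 2.65% (without GS9) to 24.9% (without AI9), from 2.48% (without AN9) to 7.29% (without AI9) and from 9.03% (without AN9) to 29.7% (without AI9). The count moved by over 1.5 times without AN3 and without AN20 (10 each) for AN F against AN P, without AI7 (15, with 12.6% of all genes) for AI F against AI P, and without AN2, AN9, AN20 and AI9 (6 each) for AN against AI. The adjusted calls were Snora19 without AN1 (AN F against AN P, AN against AI and the interaction), Snord88a without AN20, Snora15 without AI10, Snord70 without GS9, Snord23 without GS32 and, for the interaction, Snord96a without AI9 (adjusted p = 0.0433 in limma's test), where 651 of all genes were also called. The cause was not tested. In the calls other than Snord96a, at least 1 of the compared groups then held 0 reads in every line, so that group had no spread. The share of summed FPKM ran over single lines left out from 18.03% to 22.02% for AN F, 15.42% to 16.9% for AN P, 12.99% to 13.48% for AI F and 16.52% to 18.4% for AI P. Leaving the 3 highest snoRNA genes out of the sum gave 9.96% for AI F, 13.27% for AI P, 11.62% for AN P and 16.37% for AN F. Counting values under 1 FPKM as not detected gave 35.58% in place of 31.9%. Depth limits the 28 genes with a mean under 1 read a line and the 16 with 1 to 3. No paired analysis was possible because replicate numbers only name the lines.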
